A study of Mus musculus with 6 samples.

Results

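Transcripts of 10 genes for enzymes and inhibitors that remodel the extracellular matrix were followed in RAW264.7, a macrophage-like line from a mouse tumour that a leukaemia virus had induced. The genes were 6 matrix metalloproteinases (Mmp8, Mmp9, Mmp12, Mmp13, Mmp14 and Mmp19), 2 tissue inhibitors of metalloproteinases (Timp1 and Timp2), urokinase (Plau) and its receptor (Plaur). They were chosen by name, and all 10 were found among the 28836 genes of the deposited table. Groups of 3 libraries each were compared, untreated cells and cells given GB2, the study's prodrug of the STING agonist MSA-2 and the TREM2 inhibitor artesunate. According to the study, the macrophages lay under tumour cells in a shared culture with a porous membrane between them. Whether the untreated cells had the same partner cells is not stated outright. All libraries came from 1 line, and the labels do not say how replicates were made. The study describes its replicates in general as biological and its data as coming from independent experiments, and a p-value here covers the scatter among these libraries of 1 line.

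Metalloproteinases are zinc enzymes that are made as inactive precursors and together cut most proteins of the extracellular matrix. Most are secreted, while MMP14 is anchored in the membrane, and TIMPs block them by sitting in the active site. Urokinase is a secreted serine protease that turns plasminogen into plasmin, which cuts fibrin and can activate metalloproteinase precursors, and its receptor holds it at the cell surface. Macrophages use these systems to move through tissue and to open the matrix around inflamed or growing tissue.

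Most of these genes changed with GB2, in both directions. Mmp9, Mmp13, Plaur and Timp1 rose, Timp2 and Plau fell, and each of these 6 was called with GB2-treated replicate 1 alone as well. With 1 treated library, that fit takes its spread from the untreated libraries alone and assumes that the treated library varies like them, so it does not measure the spread between treated cultures. Mmp8 and Mmp14 were also called higher, Mmp8 from 83 counts over all libraries and Mmp14 with the rise in GB2-treated replicates 2 and 3. Mmp12 and Mmp19 were not called. A gene was called where edgeR gave a false discovery rate (FDR) below 0.05 over the 17124 genes tested and the log2 change was 1 or more in size, after the criteria in the study's methods. By this rule 80.0% of the 10 genes were called, 6 higher and 2 lower. Mmp8 is in this count, although it had enough counts to be tested only through the treated libraries. Of all genes tested 21.2% were called, 13.4% higher and 7.73% lower (2300 and 1324 genes, against 1432 and 1440 with GB2-treated replicate 1 alone). The FDR alone was passed by 9 of the 10 genes and by 56.4% of all. The median absolute log2 change was 1.55 over the 10 genes and 0.55 over all genes tested. These genes were picked with results of the same data known, so the comparison with the background is a description.

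GB2-treated replicates 2 and 3 carried transcripts of other mouse tissues that replicate 1 held at or near the untreated level. Values of GB2-treated replicate 1 are therefore given on their own for each of the 10 genes. Some sums and related genes are given as group means only. The 6 hepatocyte markers summed to between 461.92 and 480.74 FPKM (fragments scaled to transcript length and to library size) in replicates 2 and 3, against 0.34 in GB2-treated replicate 1 and 0.22 to 0.43 in untreated libraries. The sums of epithelial, endothelial, fibroblast and skeletal muscle markers were also higher in replicates 2 and 3. Epithelial markers summed to 48.41 and 58.21 FPKM there, endothelial markers to 6.83 and 10.21 FPKM, fibroblast markers to 3.18 and 3.65 FPKM and muscle markers to 7.20 and 11.87 FPKM. In the other 4 libraries these lists lay between 0.28 and 1.27 FPKM. The muscle markers did not all rise. In GB2-treated replicates 2 and 3, Ckm was 4.77 and 7.91 FPKM, Acta1 1.63 and 3.09 FPKM and Tnnt3 0.14 and 0.17 FPKM. Mylpf was lower in these 2 libraries (0.66 and 0.70 FPKM) than in GB2-treated replicate 1 (1.01 FPKM), and Myh4 had 0 counts in both. The endothelial marker Pecam1 was above the untreated libraries in GB2-treated replicate 1 as well, at 0.25 FPKM against 0.07 to 0.11 FPKM. Macrophage markers were abundant in all 6 libraries. They summed to between 15189 and 15729 FPKM in untreated libraries, 8692 in GB2-treated replicate 1 and 7542 and 8071 in replicates 2 and 3. Most of this was Lyz2, and 2 of the 8 markers (Cd68 and Csf1r) were called lower. Of the 6 not called, Lyz2 and Adgre1 had log2 changes of -0.99 and -0.78. Cd14, Fcgr1 and Ptprc were at -0.09, 0.04 and 0.06, and Itgam at 0.38. Library totals ranged from 62660734 to 77337345 estimated counts. In bulk RNA, fewer cells of a type and less RNA per cell cannot be told apart.

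**Figure D1:**
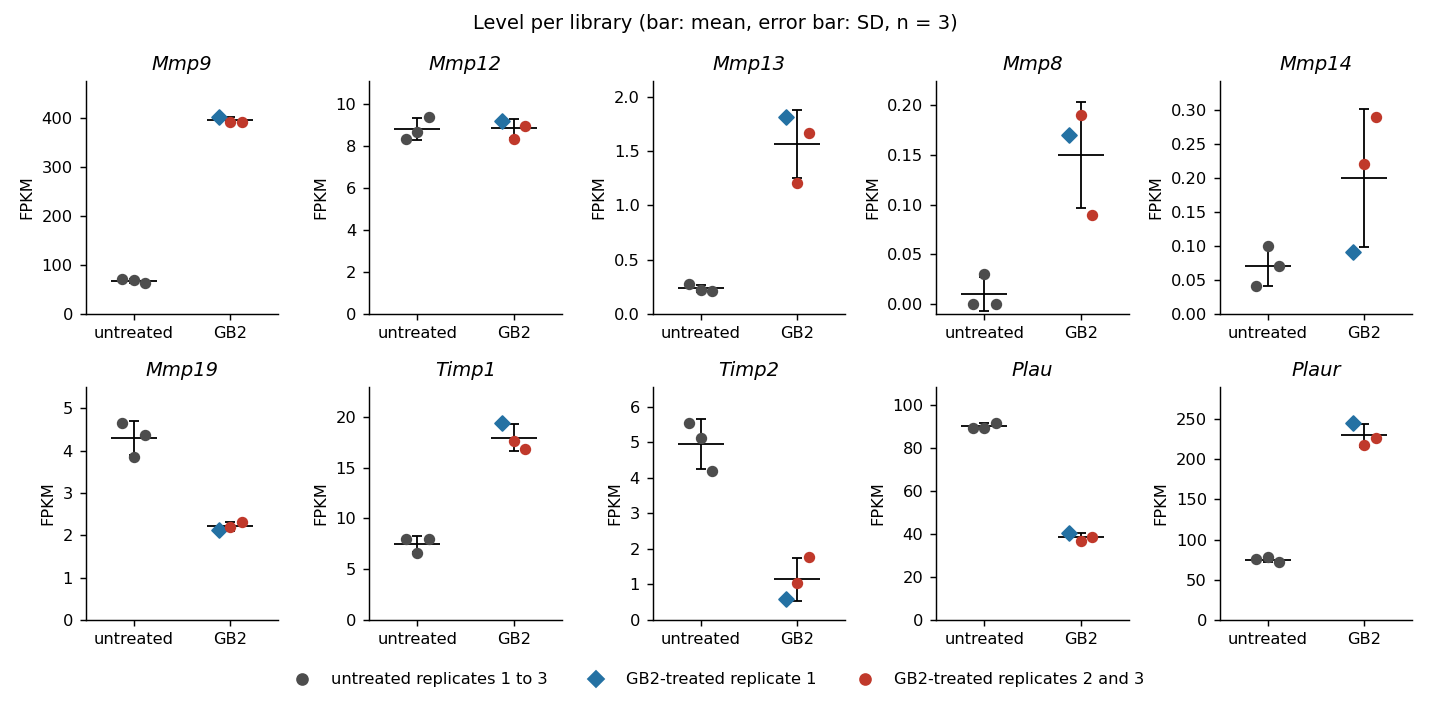
Level of each of the 10 genes in every library, in FPKM on an axis of its own for each gene. Grey points are untreated replicates 1 to 3, the blue diamond is GB2-treated replicate 1, red points are GB2-treated replicates 2 and 3, and bars give mean and SD (n = 3). The groups are apart for 8 genes and overlap for Mmp12 and Mmp14, and Timp2 and Mmp14 are lowest in replicate 1 among the treated libraries.

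The levels spanned a wide range, and the order of the genes was rearranged by treatment. In untreated cells Plau was highest at 90.3 ± 1.38 FPKM (SD, n = 3 for all values of this kind), followed by Plaur and Mmp9. Mmp12, Timp1, Timp2 and Mmp19 formed a middle range from 8.81 down to 4.30 FPKM, in which Timp2 and Mmp19 overlapped between libraries. Mmp13, Mmp14 and Mmp8 lay below 1 FPKM. After GB2 the order was Mmp9, Plaur, Plau and Timp1, then Mmp12 and Mmp19. Mmp13 and Timp2 came next and overlapped, as did Mmp14 and Mmp8 at the bottom. In untreated cells Mmp9 stood at the percentile 97.8 of all genes in the table, and in GB2-treated cells at 99.6.

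Among the metalloproteinases, Mmp9 carried nearly all of the difference in level. Mmp9 encodes gelatinase B, which cuts denatured collagen and basement membrane collagen (ENSMUSG00000017737, chromosome 2, 164940780 to 164955850, plus strand, with all positions on mm10). Its level was 70.16, 69.55 and 62.76 FPKM in untreated replicates 1 to 3 and 403.70, 391.84 and 392.72 FPKM in GB2-treated replicates 1 to 3. All treated libraries lay far above all untreated ones, and replicate 1 was level with the others. The rise was 5.94-fold, with a log2 change of 2.57 ± 0.06 (SE, edgeR FDR = 9.85e-08), and the log2 change was 2.66 with GB2-treated replicate 1 alone.

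The summed level of the 6 metalloproteinase genes went from 80.9 ± 3.58 to 409.05 ± 7.05 FPKM. Mmp9 made up 84.0%, 84.4% and 81.7% of that sum in untreated replicates 1 to 3 and 96.8%, 97.0% and 96.7% in GB2-treated replicates 1 to 3. The share of Mmp12 went from 10.9% ± 1.17 to 2.16% ± 0.0818 while its own level hardly moved. Each of these quantities was fully separated between groups. An exact permutation test (two-sided) gave p = 0.1, the smallest that 3 against 3 libraries allow, so these ratios and sums cannot reach 0.05.

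Mmp12 is macrophage elastase, the metalloproteinase most typical of macrophages, and it did not follow Mmp9. It lies on chromosome 9 (ENSMUSG00000049723, 7344381 to 7369499, plus strand). Its levels were 8.35, 8.68 and 9.40 FPKM in untreated replicates 1 to 3 and 9.21, 8.35 and 8.97 FPKM in GB2-treated replicates 1 to 3. The groups overlapped, with a log2 change of 0.02 ± 0.05 (SE, edgeR FDR = 0.742). Under the alternatives tried, its log2 change ran from -0.04 to 0.15.

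Mmp13, a collagenase that cuts fibrillar collagen, sits in the same gene cluster (ENSMUSG00000050578, chromosome 9, 7272514 to 7283331, plus strand) and rose from a low level. It was 0.27, 0.22 and 0.21 FPKM in untreated replicates 1 to 3 and 1.82, 1.21 and 1.67 FPKM in GB2-treated replicates 1 to 3. Every treated library was above every untreated one, and replicate 1 was the highest. The log2 change was 2.73 ± 0.24 (SE, 6.63-fold, edgeR FDR = 5.66e-05), and 3.01 with replicate 1 alone. Markers of osteoblasts and cartilage, tissues known for Mmp13, summed to 0.66 to 0.75 FPKM in untreated libraries. They summed to 0.79 FPKM in GB2-treated replicate 1 and 1.35 to 1.47 FPKM in replicates 2 and 3. Most of this was Alpl, at 0.64, 0.73 and 0.6 FPKM in untreated replicates 1 to 3. Alpl was 0.7, 1.42 and 1.3 FPKM in GB2-treated replicates 1 to 3 (log2 change 0.82, edgeR FDR = 0.0407, short of the fold threshold). Bglap had no count in any library. The part of these tissues in the Mmp13 value was not tested. Mmp9 and Mmp13 thus had similar log2 changes at very different levels.

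Mmp8, the collagenase best known from neutrophils, was close to the limit of detection. It lies on chromosome 9 as well (ENSMUSG00000005800, 7558456 to 7568485, plus strand). Untreated replicates 1 to 3 held 0, 6 and 0 counts, and GB2-treated replicates 1 to 3 held 32, 31 and 14, which equals at most 0.19 FPKM. The treated libraries were the higher ones, and the gene passed the expression filter only through them. Its log2 change of 3.82 ± 1.16 (SE, edgeR FDR = 0.0253) was no longer called without untreated replicate 1 (log2 change 3.25, FDR = 0.110), untreated replicate 3 (3.24, FDR = 0.109) or GB2-treated replicate 2 (3.64, FDR = 0.0754). With GB2-treated replicate 1 alone it was 4.08 (edgeR FDR = 0.0802). The size of the change was thus similar in these smaller fits while the FDR rose above 0.05. Most neutrophil-defining transcripts were at or near 0. Of the 7 neutrophil markers in the table, Ngp had no count in any library, Mpo, Elane, Ltf and S100a9 had none outside GB2-treated replicate 3, where they had 4, 6, 12 and 4, Camp had 0 to 14 counts, and S100a8 lay between 1.14 and 1.54 FPKM in untreated and between 2.23 and 2.87 FPKM in treated libraries. The 7 markers summed to 1.21 to 1.63 FPKM untreated and 2.25 to 3.11 FPKM after GB2, and their part in the Mmp8 value was not tested.

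Mmp14, the membrane-anchored metalloproteinase that activates the precursor of MMP2, varied between the treated libraries. It lies on chromosome 14 (ENSMUSG00000000957, 54431612 to 54441265, plus strand). Its levels were 0.04, 0.10 and 0.07 FPKM in untreated replicates 1 to 3 and 0.09, 0.22 and 0.29 FPKM in GB2-treated replicates 1 to 3. GB2-treated replicate 1 lay within the untreated range, and only replicates 2 and 3 were above it. The log2 change of 1.47 ± 0.51 (SE, edgeR FDR = 0.0416) became 0.39 with replicate 1 alone (FDR = 0.637), and the call was lost in 5 of the 6 fits that left out 1 library (all but the fit without GB2-treated replicate 1), with FDR up to 0.155. Replicates 2 and 3 are the libraries with fibroblast and endothelial markers, whose part in the value was not tested.

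Mmp19 encodes a metalloproteinase with a broad set of substrates that several tissues express at rest. It lies on chromosome 10 (ENSMUSG00000025355, 128790910 to 128800824, plus strand). It stood at 4.66, 3.86 and 4.38 FPKM in untreated replicates 1 to 3 and at 2.12, 2.19 and 2.31 FPKM in GB2-treated replicates 1 to 3. The groups did not overlap, and the 3 treated libraries lay close together. With a log2 change of -0.94 ± 0.10 (SE, edgeR FDR = 0.000147) it passed the FDR but not the fold threshold. It was called only when untreated replicate 2 was left out (log2 change -1.03). Tmem198b, on the opposite strand, shares 22.3% of the exonic bases of Mmp19, and its own log2 change was not called (FDR = 0.338). The library protocol keeps the strand, but whether counting used it is not given in the sources used here.

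**Figure D2:**
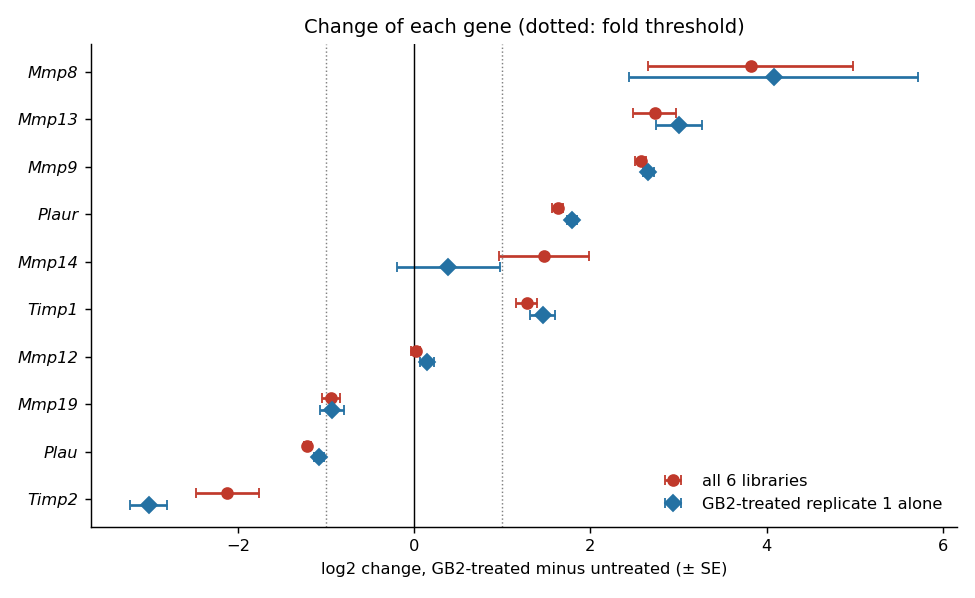
Log2 change of each gene after GB2 (x axis, GB2-treated minus untreated, ± SE from edgeR). Red circles use all 6 libraries, blue diamonds use GB2-treated replicate 1 without the other treated libraries, and dotted lines mark the fold threshold. Mmp14 moves from 1.47 to 0.39 and Timp2 from -2.12 to -3.01, while Mmp9, Plaur, Timp1, Plau and Mmp19 lie close together in both.

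The 2 inhibitors moved in opposite directions. Timp1, an inducible inhibitor that binds MMP9 and its precursor, lies on chromosome X (ENSMUSG00000001131, 20870166 to 20874735, plus strand). It went from 7.97, 6.55 and 7.94 FPKM in untreated replicates 1 to 3 to 19.44, 17.63 and 16.82 FPKM in GB2-treated replicates 1 to 3. The rise was seen in every treated library and was largest in replicate 1. The log2 change was 1.28 ± 0.12 (SE, 2.43-fold, edgeR FDR = 6.48e-05), and 1.46 with replicate 1 alone.

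Timp2, which inhibits metalloproteinases and also takes part in the activation of pro-MMP2 by MMP14, fell. The gene lies on chromosome 11 (ENSMUSG00000017466, 118301069 to 118355740, minus strand). It was 5.55, 5.13 and 4.18 FPKM in untreated replicates 1 to 3 and 0.58, 1.05 and 1.78 FPKM in GB2-treated replicates 1 to 3. All treated libraries were below all untreated ones, and replicate 1 was the lowest of them. The fall was 4.34-fold with a log2 change of -2.12 ± 0.36 (SE, edgeR FDR = 0.00176). With replicate 1 alone the log2 change was -3.01, and the treated libraries themselves spanned 0.58 to 1.78 FPKM. The mean of replicates 2 and 3 was 2.44 times the level of replicate 1, and whether the other tissues seen in these libraries added Timp2 reads was not tested.

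The pool of Timp1 and Timp2 changed in both size and make-up. It leaves out Timp3, which is described further below. Timp3 was 1.5, 2.69 and 2.58 FPKM in GB2-treated replicates 1 to 3, above Timp2 in each. Timp1 and Timp2 together came to 12.4 ± 0.961 FPKM in untreated cells and 19.1 ± 0.798 FPKM after GB2. Timp1 was 59.0%, 56.1% and 65.5% of this sum in untreated replicates 1 to 3 and 97.1%, 94.4% and 90.4% in GB2-treated replicates 1 to 3. Mmp9 rose by more than its inhibitor. The ratio of Mmp9 to Timp1 in FPKM was 8.80, 10.6 and 7.90 in untreated replicates 1 to 3 and 20.8, 22.2 and 23.3 in GB2-treated replicates 1 to 3. On the log2 scale this ratio was 1.29 higher after GB2, or 2.44-fold, with no overlap (two-sided exact permutation p = 0.1). The same holds for the 7 sums, shares and ratios compared in this way, for which the adjusted p was also 0.1.

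Urokinase and its receptor diverged as well. Plau lies on chromosome 14 (ENSMUSG00000021822, 20836660 to 20843385, plus strand). It went down from 89.55, 89.45 and 91.89 FPKM in untreated replicates 1 to 3 to 40.38, 36.69 and 38.68 FPKM in GB2-treated replicates 1 to 3. The groups were well apart, and replicate 1 was like the others. The fall was 2.31-fold (log2 change -1.21 ± 0.04, SE, edgeR FDR = 5.86e-07), and the log2 change was -1.08 with replicate 1 alone.

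Plaur, which encodes the lipid-anchored urokinase receptor, lies on chromosome 7 (ENSMUSG00000046223, 24462484 to 24475968, plus strand) and rose. It was 75.21, 78.08 and 71.88 FPKM in untreated replicates 1 to 3 and 245.57, 217.84 and 226.00 FPKM in GB2-treated replicates 1 to 3. All treated libraries were above all untreated ones, with replicate 1 the highest. The log2 change was 1.63 ± 0.06 (SE, 3.10-fold, edgeR FDR = 6.94e-07), and 1.79 with replicate 1 alone. Receptor and ligand thus changed places. The ratio of Plaur to Plau in FPKM was 0.832 ± 0.0459 in untreated cells and 5.95 ± 0.120 after GB2 (two-sided exact permutation p = 0.1).

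Of the 10 genes, 5 were higher and 3 lower in every treated library than in every untreated one. Such separation was common in these data. Among all genes tested 27.4% were higher and 34.5% lower with no overlap (61.9% together), so separation alone marks none of these genes out.

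Mmp13, Mmp12 and Mmp8 belong to a row of metalloproteinase genes on chromosome 9, which allowed neighbours to be compared. From Mmp13 to the end of Mmp7 the row spans 427.1 kb and holds 7 such genes in the table. Mmp13 rose next to an unchanged Mmp12. Mmp1b and Mmp10 had no count in any library, and Mmp7 had 8 counts over all 6. Mmp3, stromelysin 1, had 0, 16 and 14 counts in untreated replicates 1 to 3 and 61, 38 and 50 in GB2-treated replicates 1 to 3. The treated libraries were the higher ones, with a log2 change of 2.53 ± 0.93 (SE) that missed the FDR threshold (edgeR FDR = 0.0508). The flanking genes Dcun1d5 and Tmem123 were not called. Mmp12 and Mmp1b overlap on opposite strands by 157 exonic bases, 2.2% of the exonic bases of Mmp12.

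**Figure D3:**
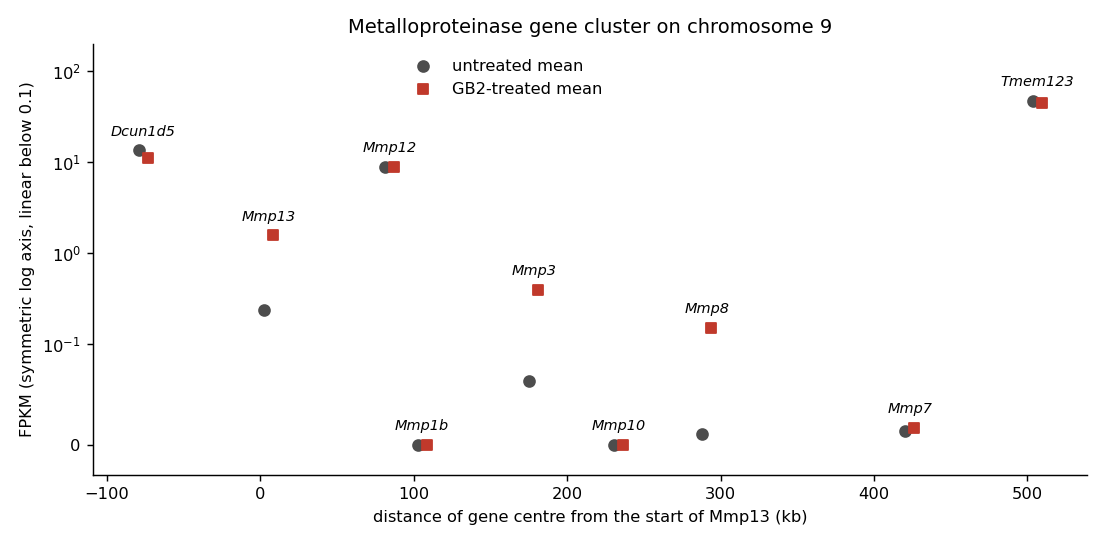
Mean level of the genes in and around the metalloproteinase cluster on chromosome 9 (y axis, FPKM, symmetric log axis that is linear below 0.1) against the distance of each gene's centre from the start of Mmp13 (x axis, kb). Grey circles are untreated means and red squares GB2-treated means (n = 3 each). Mmp13, Mmp3 and Mmp8 show a higher treated mean, while the points of Mmp12 coincide at 8.81 and 8.84 FPKM.

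Promoters were searched for motifs, among them AP-1, the binding motif of the Fos and Jun proteins, long known from collagenase genes. RefSeq promoters (GRCm38.p6, 250 bases before and 50 after each start site) were found for 7 of the 10 genes, as 8 promoters. Those of Mmp9, Mmp19 and Plau were not analysed here. The AP-1 motif, TGACTCA or TGAGTCA, stood in 3 of the 8, against 5.20% of all 32851 promoters. These 3 belong to Plaur and Mmp13, which rose, and to a second start site of Mmp12, which was not called. Timp1 rose with no AP-1 match in its window. The last 120 bases before the start site are shown for these 4 promoters, 5′ to 3′ on the plus strand, with the AP-1 match in capitals. They lie at chr9:7272394-7272513 for Mmp13, chr7:24462363-24462482 for Plaur, chr9:7347254-7347373 for Mmp12 (second start site) and chrX:20870046-20870165 for Timp1.
Mmp13: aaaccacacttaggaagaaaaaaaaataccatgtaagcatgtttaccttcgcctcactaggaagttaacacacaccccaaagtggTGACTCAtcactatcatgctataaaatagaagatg
Plaur: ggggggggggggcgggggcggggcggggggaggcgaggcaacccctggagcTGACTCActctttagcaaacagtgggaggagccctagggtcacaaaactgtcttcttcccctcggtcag
Mmp12: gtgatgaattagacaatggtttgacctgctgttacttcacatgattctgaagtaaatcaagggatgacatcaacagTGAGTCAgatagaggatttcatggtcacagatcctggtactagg
Timp1: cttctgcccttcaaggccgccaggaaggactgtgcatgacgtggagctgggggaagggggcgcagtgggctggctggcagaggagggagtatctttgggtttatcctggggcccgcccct
The match begins 35 bases before the start site in Mmp13, 69 before it in Plaur and 44 before it in Mmp12. The TATA box motif TATAAA, searched on the plus strand, was in 2 of the 8 promoters and in 8.32% of all. In Mmp13 it begins 16 bases before the start site, and in the second Mmp12 promoter 4 bases after it. The ETS motif AGGAAG, searched on both strands, was in 6 of the 8 promoters and in 35.4% of all. Cores of the hypoxia response motif, ACGTG or GCGTG on both strands, were in 3 of the 8 (Timp1, Timp2 and Mmp14) and in 43.8% of all. A match is a stretch of letters and was not tested as a binding site.

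Among 12 factors of the AP-1 and ETS families, 5 were called higher and 0 lower, beside 13.4% higher and 7.73% lower over all genes. Another 5, Fos and Jun among them, fell at an FDR below 0.05 and missed only the fold threshold. Of all genes tested 56.4% passed that FDR in either direction. Fosl1, an AP-1 subunit induced by growth signals, went from 1.21 to 7.29 FPKM on average (log2 change 2.60 ± 0.17, SE, edgeR FDR = 1.19e-05). Fosl2 and Junb, further AP-1 subunits, rose with log2 changes of 1.09 ± 0.04 and 1.20 ± 0.05. Junb was the most abundant factor of the list, at 312.86 FPKM after GB2. These 3 were called with replicate 1 alone too. The other called factors were Ets1 (log2 change 3.36, but 0.31 with replicate 1 alone) and Etv4 (1.10 and 0.88). Fos and Jun were not called, at log2 changes of -0.50 and -0.13.

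Of 11 other genes of the plasminogen system tested, 4 were called higher and 0 lower, beside 13.4% higher and 7.73% lower over all genes. A further 1 fell at an FDR below 0.05 and missed only the fold threshold. That FDR was passed by 56.4% of all genes tested, in either direction. Serpinb2, which encodes a serpin that inhibits urokinase, was 0.44, 0.48 and 0.6 FPKM in untreated replicates 1 to 3 and 3.69, 3.08 and 3.02 FPKM in GB2-treated replicates 1 to 3. All treated libraries were above all untreated ones, with a log2 change of 2.70 ± 0.19 (SE, edgeR FDR = 1.65e-05). Anxa2, annexin A2, which binds plasminogen and its activators at the surface, rose from 128.2 to 389.55 FPKM (log2 change 1.62 ± 0.05).

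Of the other parts of that system, Serpinf2, Plg and Plat depended on the library. Serpinf2, the plasmin inhibitor made by liver, was called higher at a log2 change of 2.53, but 0.45 with replicate 1 alone (FDR = 0.380). Plg, plasminogen itself, another liver product, had 0 counts in the untreated libraries and in GB2-treated replicate 1, and 1210 and 1160 in replicates 2 and 3, the libraries with hepatocyte markers. Plat, tissue-type activator, was not called. It was 0.16, 0.10 and 0.12 FPKM in untreated replicates 1 to 3 and 0.08, 0.28 and 0.34 FPKM in GB2-treated replicates 1 to 3. Its log2 change was 0.85 ± 0.50 (SE, edgeR FDR = 0.186) over all libraries and -0.52 with replicate 1 alone. Itgam and Itgb2, the chains of the integrin that pairs with the urokinase receptor, were higher with no overlap. Their log2 changes were 0.38 and 0.17 (edgeR FDR = 0.000106 and 0.0136), short of the fold threshold, and 0.49 and 0.30 with replicate 1 alone. Lrp1, which clears urokinase bound to its inhibitor, was not called, at -0.38 ± 0.04.

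**Figure D4:**
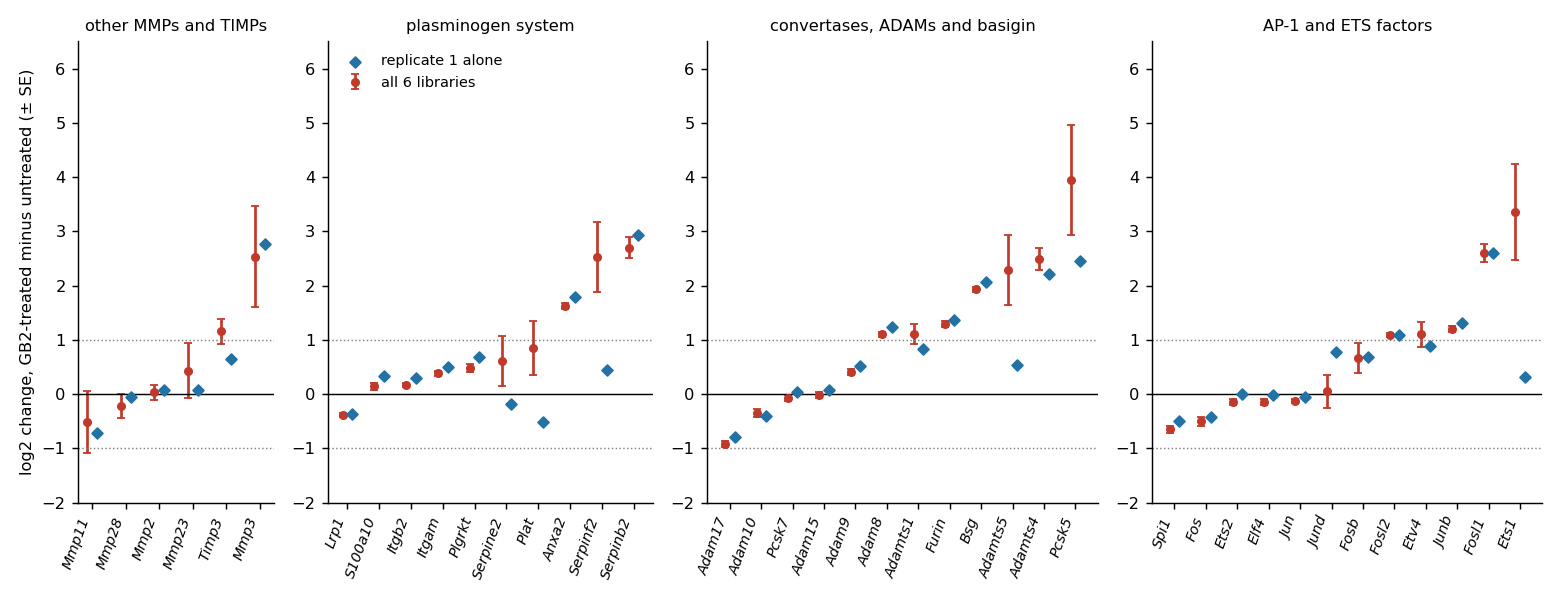
Log2 change (y axis, GB2-treated minus untreated) of tested genes related to the 10 (1 gene of the lists is not plotted), in 4 panels. Red circles with SE bars use all 6 libraries, blue diamonds use GB2-treated replicate 1 without the other treated libraries, and dotted lines mark the fold threshold. Serpinb2 is at 2.70 in the first and 2.93 in the second, while Serpinf2 moves from 2.53 to 0.45 and Ets1 from 3.36 to 0.31.

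Of 12 tested genes for convertases, ADAM and ADAMTS proteases and basigin, 7 were called higher and 0 lower, beside 13.4% higher and 7.73% lower over all genes. Adam17 (log2 change -0.92 ± 0.05, SE, edgeR FDR = 2.72e-06) and Adam10 (-0.35 ± 0.07, FDR = 0.00545) fell with no overlap and missed only the fold threshold. Among all genes tested 34.5% were lower with no overlap. Pcsk5, called from 0, 4 and 8 untreated counts, passed the expression filter only through treated libraries. With replicate 1 alone 4 of the 12 were called higher. Bsg, basigin, a surface glycoprotein that induces metalloproteinases in neighbouring cells, went from 125.4 to 471.62 FPKM (log2 change 1.93 ± 0.05, SE, edgeR FDR = 1.95e-07). Furin, a convertase that trims the propeptide of MMP14 and other precursors, rose from 17.99 to 43.5 FPKM (1.29 ± 0.05). Adamts4, an aggrecan-cutting protease, rose from a mean of 0.223 FPKM to 0.98, 1.36 and 1.37 FPKM in GB2-treated replicates 1 to 3. Its log2 change was 2.49 ± 0.21, and 2.22 with replicate 1 alone. Adamts1, a related protease, had a log2 change of 1.11 ± 0.18, and 0.83 with replicate 1 alone.

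The remaining metalloproteinases stayed low. Of the 17 others listed, 14 were in the table and 5 passed the expression filter. By edgeR 0 of these 5 were called and 1 had an unadjusted p under 0.05 (Mmp3). The DESeq2 Wald test, run without that filter, called 2 of the 14, Mmp3 and Mmp15. Over the 27872 genes it fitted, that test called 3094 higher and 1297 lower. Mmp15 had 0, 138 and 246 counts in GB2-treated replicates 1 to 3, so its call came from replicates 2 and 3. Mmp28, epilysin, had the highest mean level, at 2.19 FPKM untreated and 1.86 after GB2 (log2 change -0.22 ± 0.22). Mmp2, the gelatinase that Mmp14 and Timp2 act on, was 1.61 and 1.63 FPKM (0.03 ± 0.14). Among 4 further inhibitors only Timp3, a matrix-bound TIMP, could be tested. It was 1.16, 1.01 and 0.89 FPKM in untreated replicates 1 to 3 and 1.5, 2.69 and 2.58 FPKM in GB2-treated replicates 1 to 3. Its call (log2 change 1.16 ± 0.23, edgeR FDR = 0.00354) was lost with replicate 1 alone, at a log2 change of 0.64. Across the 5 lists of related genes 41 genes were tested, of which edgeR called 17 higher and 0 lower. The DESeq2 Wald test also called 0 lower. A further 8 fell with an edgeR FDR below 0.05 and no overlap between groups, and missed only the fold threshold. Of all genes tested 34.5% were lower with no overlap, and 56.4% passed the FDR in either direction. Over all genes tested 13.4% were called higher and 7.73% lower, and the lists were chosen with results known. With replicate 1 alone 10 were called higher.

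**Figure D5:**
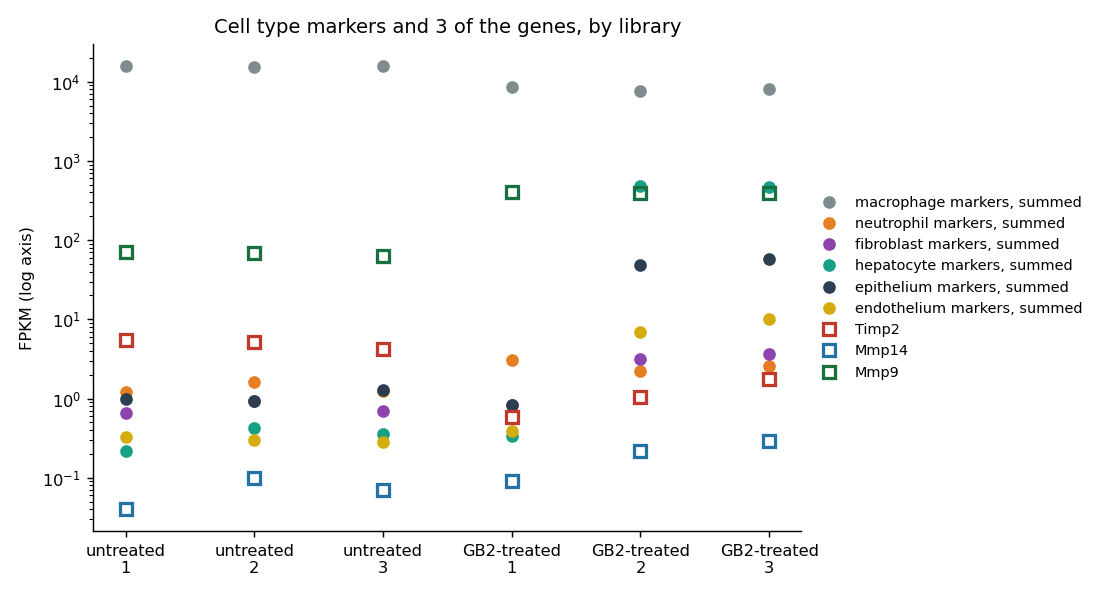
Summed level of markers of 6 cell types (filled circles) and level of Timp2, Mmp14 and Mmp9 (open squares) in each library, in FPKM on a log axis. Hepatocyte, epithelial, endothelial and fibroblast markers are high in GB2-treated replicates 2 and 3 only. Timp2 and Mmp14 are higher in these 2 libraries than in GB2-treated replicate 1, and Mmp9 is level in all 3 treated libraries.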

How the data were processed

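RNA of 3 untreated and 3 GB2-treated RAW264.7 libraries was read as paired ends from poly(A) libraries that keep the strand. Groups and replicate numbers came from the sample labels. Per the submitters' notes, HISAT2 2.2.1, cutadapt 1.9, StringTie 2.1.6, edgeR and DESeq2 were used with build mm10. Neither the role of each tool nor the strand setting of the counting is given in the sources used here. Deposited for each gene were whole-number estimated counts, which were tested as given, and FPKM values computed by the authors, which were used for levels. Low values clustered at multiples of 4 (952 genes of untreated replicate 1 held a count of 4, and 252 a count of 5), and the counts were therefore also fitted after division by 4.

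The test was the quasi-likelihood F test of edgeR 4.0.16 under R 4.3.3 (TMM scaling, default expression filter, no covariate), Benjamini-Hochberg adjusted over 17124 genes. The SE was taken as the size of the log2 change over the root of F. The code was tested on simulated data. Sums and ratios were compared by exact permutation. No 2 libraries agreed within sampling noise (chi-square per degree of freedom 13.37 or more). Starts and ends of 9 of the 10 genes were identical in GENCODE M21, which gave the exonic overlaps.

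Every one of the 10 genes is described. In each list of related genes all called genes are named where at most 6 were called, otherwise the 4 largest changes at 1 FPKM or more, with the most abundant gene. Some further genes (Mmp2, Mmp3, Mmp15, Mmp17, Jund, Plg, Plat, Itgam, Itgb2, Lrp1, Adam10, Adam17, Fos and Jun) were named after their values were seen. Exactly 1 called gene of the plasminogen list is counted but not reported here. Members, lists, motifs and alternatives were chosen with earlier results of these data known. Alternatives were dropping the expression filter, size factors or the Wald test of DESeq2 1.42.0, limma 3.58.1 on log2(FPKM + 1) or log2(FPKM + 0.1), a replicate block, leaving out each library, and GB2-treated replicate 1 alone.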

Additional observations from a re-analysis of the deposited data

How the results depend on the processing

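Of the 8 called genes, 6 (Mmp9, Mmp13, Plaur, Timp1, Timp2 and Plau) kept their call in every alternative that could be fitted for them, with log2 changes from 2.49 to 2.66, 1.05 to 3.01, 1.55 to 1.79, 1.16 to 1.46, -3.01 to -1.51 and -1.27 to -1.08. Mmp8 and Mmp14 lost theirs without the expression filter (FDR = 0.0798 and 0.0905) and in limma on log2(FPKM + 1) without an FPKM filter (log2 changes 0.19 and 0.16), a scale that understates low genes. Without untreated replicate 2, Mmp8 had no untreated count and its fitted 7.77 is no bound. Mmp8, Mmp13 and Mmp14 fell under 1 FPKM on average and could not be fitted by limma with that filter, and Mmp8 could not with counts divided by 4. With limma at a mean of at least 1 FPKM, 3 of the 10 genes were higher for either pseudocount. Over all genes, 2300 were higher and 1324 lower. limma on log2(FPKM + 1) gave 603 and 611 with the filter and 598 and 614 without, and 860 and 960 on log2(FPKM + 0.1). GB2-treated replicate 1 alone gave 1432 and 1440, so that in these fits the higher genes were no longer the majority. Leaving out 1 library gave 1486 to 3728 higher over all genes, the highest without GB2-treated replicate 1, and 4 to 6 of the 10 genes higher. The ratio of Mmp9 to Timp1 rose by 1.19 to 1.40 (log2) when 1 library was left out and by 1.20 with replicate 1 alone. In the lists of related genes 17 were higher, against 9 and 8 in limma on log2(FPKM + 1) with and without the filter, and 10 with replicate 1 alone, and 13 to 23 when 1 library was left out (23 without GB2-treated replicate 1). Same-numbered libraries shared little (correlations of deviations 0.01 to 0.05), though each correlated best with its own number. The replicate block gave 1776 higher and 1264 lower over all genes, with 6 and 2 of the 10 and 14 related genes higher. With counts divided by 4, Mmp14 was still called (log2 change 1.57, FDR = 0.0228). Depth bears most on Mmp8, with at most 32 counts in a library.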

Other observations

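Metalloproteinase transcripts outside the 10 genes appeared in GB2-treated replicates 2 and 3. Mmp15, a membrane-type enzyme, had 4, 10 and 10 counts in untreated replicates 1 to 3, 0 in GB2-treated replicate 1 and 138 and 246 in replicates 2 and 3. Mmp17, another membrane-type enzyme, had 0 counts in the first 4 of these libraries and 47 and 51 in the last. Neither passed the expression filter of the edgeR test, since fewer than 3 libraries were high. The DESeq2 Wald test, without that filter, called Mmp15 higher (log2 change 4.29, FDR = 0.0447).

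Jund, an AP-1 subunit, split the treated libraries the other way. It was 58.63, 63.39 and 53.18 FPKM in untreated replicates 1 to 3 and 94.46, 46.87 and 37.68 FPKM in GB2-treated replicates 1 to 3. The log2 change by edgeR was 0.05 ± 0.31 over all libraries (SE, FDR = 0.901) and 0.78 with GB2-treated replicate 1 alone, a value from 1 treated library while the treated libraries spanned 37.68 to 94.46 FPKM.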
